A study of Mus musculus with 3 samples.

Results

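The genes described here are 10 receptors and adaptors through which myeloid cells read antibody and neighbouring cells, measured in alveolar type 2 (AT2) cell sorts of smoke-exposed and air-exposed mice. The inhibitory receptors are Lilrb4a, Pirb, Fcgr2b and Sirpa, the activating Fc receptors are Fcgr1, Fcgr3 and Fcgr4, and the others are the adaptors Fcer1g and Tyrobp and the receptor Trem2. Each was read from the transcript cluster, a set of probes assigned to a gene, that carries its symbol. The 10 genes have 1 cluster each among 22206, of which 19572 carry a gene symbol. The group was selected on values of these same arrays, after the distance of Lilrb4a between the smoke arrays had been seen, so its differences are a description and no test was made on them.

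AT2 cells, which make and secrete surfactant, were sorted as EpCAM high, GFP high cells from female Sftpc/GFP mice (CBA/Ca × C57BL6J) that entered the protocol at 9 to 11 weeks of age. All mice, the air group included, carried GFP driven by the Sftpc promoter, which is also weakly active in some cells at the bronchioalveolar duct junction and the terminal bronchioles. Intermittent CS mice had their 3 weeks of mainstream cigarette smoke (CS) spread over a 5-week protocol with weeks of air between them, continuous CS mice had 3 weeks of smoke in succession, and age-matched air mice had none. Smoke was inhaled through the nose for 60 minutes daily, 5 days in each smoke week, and mice were killed 24 hours after the last smoke. Sorted cells of 3 mice were pooled for each exposure before RNA extraction, and 100 ng of the RNA was labelled for 1 Clariom S array. A step that removed CD45-positive leukocytes is described for fibroblasts in the sources used here, and none is described for the AT2 sort.

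Myeloid receptors of these families work in opposition. An activating Fc receptor binds the constant part of IgG and signals through an adaptor whose ITAM motif recruits the kinase Syk, whereas an inhibitory receptor carries ITIM motifs in its own tail that recruit the phosphatases Ptpn6, Ptpn11 or Inpp5d. In the lung, alveolar macrophages and neutrophils are well known to carry such receptors, and epithelial cells offer several of the proteins that they bind.

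The genes lie in clusters of related genes in the RefSeq annotation of GRCm38.p6. Fcgr2b, Fcgr4 and Fcgr3 are neighbours on chromosome 1, which also holds Fcer1g, and Lilrb4a lies beside its near copy Lilr4b on chromosome 10. The promoter set used here held 7 of the 10 genes and had no entry for Lilrb4a, Tyrobp and Sirpa. In the 250 bases before the start site, 5 of the 7 held GAGGAA, a core that the myeloid factor PU.1 is known to bind, on either strand (TTCCTC as read on the other), against 23.3% of all 32851 promoters of that length. The matches were in Pirb, Fcgr1, Fcgr3, Fcgr4 and Trem2, and these letters did not occur in the windows of Fcgr2b and Fcer1g. The motif was picked after several short motifs had been looked at in these promoters, so nothing is read from the distance of 5 of 7 to 23.3%. The promoters of Fcgr3 and Fcer1g are shown because these genes code for the ligand-binding chain and the signaling chain of a single receptor complex, and that of Pirb because it held 3 matches. All read on the minus strand, in the 5′ to 3′ direction of the gene, at chr1:171059404-171059653 for Fcgr3 (the first listed of 2 starts), chr1:171234350-171234599 for Fcer1g and chr7:3720383-3720632 for Pirb, with the motif in capitals on either strand.
Fcgr3: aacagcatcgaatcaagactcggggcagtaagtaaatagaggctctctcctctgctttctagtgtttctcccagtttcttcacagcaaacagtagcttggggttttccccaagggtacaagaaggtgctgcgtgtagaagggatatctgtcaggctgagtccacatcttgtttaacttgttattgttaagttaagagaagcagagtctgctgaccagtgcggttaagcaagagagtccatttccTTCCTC
Fcer1g: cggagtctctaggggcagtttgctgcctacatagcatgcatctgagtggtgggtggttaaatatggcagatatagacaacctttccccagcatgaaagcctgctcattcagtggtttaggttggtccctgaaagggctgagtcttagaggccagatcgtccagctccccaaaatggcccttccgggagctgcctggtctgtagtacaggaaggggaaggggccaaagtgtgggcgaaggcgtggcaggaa
Pirb: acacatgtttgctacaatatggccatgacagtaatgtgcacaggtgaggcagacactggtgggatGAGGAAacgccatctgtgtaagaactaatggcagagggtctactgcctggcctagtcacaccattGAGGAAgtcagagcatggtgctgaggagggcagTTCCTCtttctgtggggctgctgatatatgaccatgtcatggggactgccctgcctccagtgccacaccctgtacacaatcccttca
The match of Fcgr3 fills the last 6 bases before its start.

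Values are log2 signals as deposited. The array medians were 5.66 with intermittent CS, 5.70 with continuous CS and 5.68 with air. A background level was taken as the 95th percentile of 1414 clusters of olfactory and vomeronasal receptors, genes of the nose, and lay between 5.14 and 5.19. With 1 pooled sample per exposure there was no replicate error, so the only spread at hand was that of the olfactory clusters between arrays. Of these, 99% lay within 1.68-fold between intermittent and continuous CS, within 1.85-fold between continuous CS and air and within 1.76-fold between intermittent CS and air. This range is given for scale and is no test of the genes chosen here. The AT2 markers Sftpc and Sftpb stood at the ceiling of 19.93 on all 3 arrays, and the epithelial surface marker Epcam was at 11.87 with intermittent CS, 11.46 with continuous CS and 11.65 with air. The leukocyte marker Ptprc was at 10.20 with intermittent CS, 10.41 with continuous CS and 10.92 with air, well above the background throughout.

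Between the smoke arrays, 3 of the 10 genes were lower by at least 2-fold on the intermittent CS array, Lilrb4a, Fcgr3 and Fcer1g, and none was 2-fold higher. Of all clusters, 0.635% were 2-fold lower and 0.117% were 2-fold higher. Because this contrast had been seen when the genes were chosen, the count is given beside the share and nothing is read from their distance. Of the other 7 genes, 5 had a lower value with intermittent CS by less than 2-fold, Fcgr1 was equal and Fcgr4 differed by less than 0.01 on the log2 scale. The median log2 difference of the 10 genes was -0.66, against 0.00 over all clusters.

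**Figure D1:**
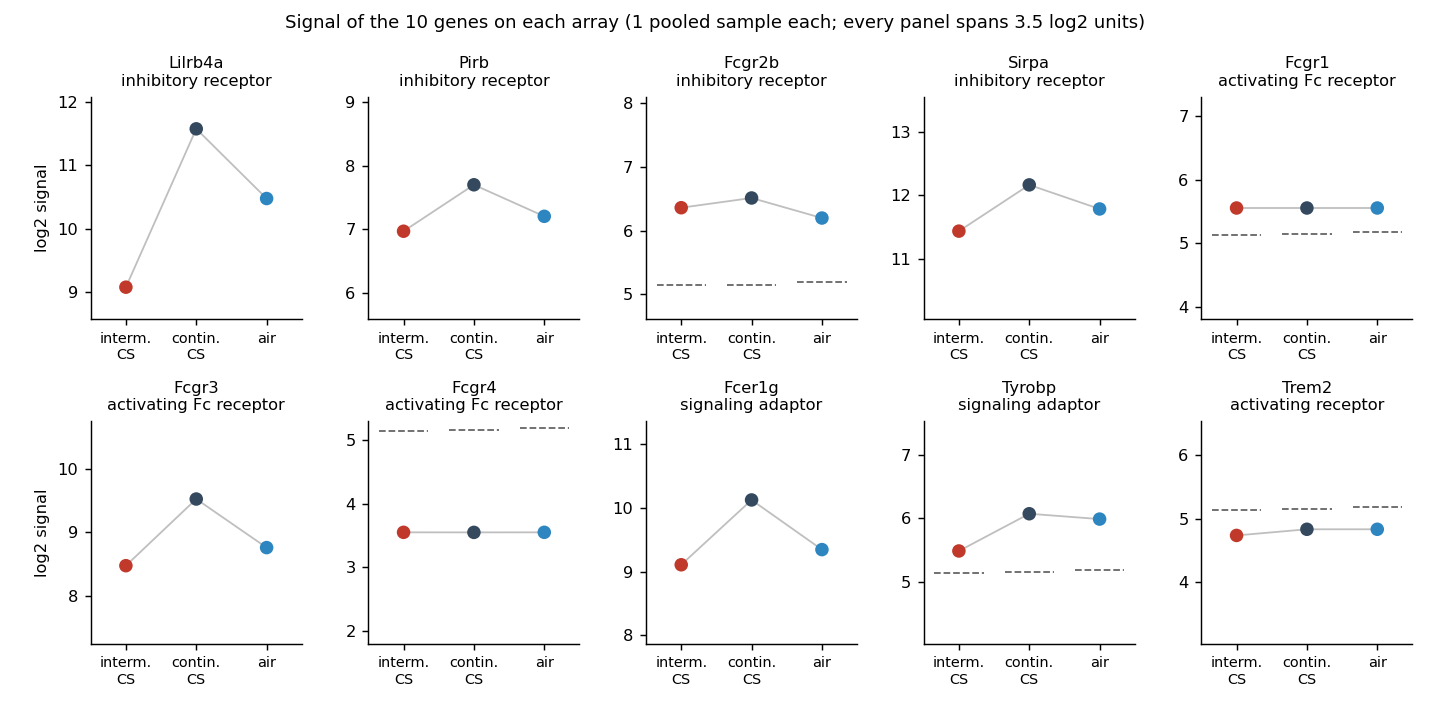
Log2 signal (vertical axis, each panel spanning the same range) of each of the 10 genes on the intermittent CS, continuous CS and air arrays, 1 pooled sample per point, with dashed lines at the olfactory background of each array where it falls within the panel. Lilrb4a stands at 9.08, 11.57 and 10.48 in that order, and Fcgr4 and Trem2 lie under the background on every array.

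Lilrb4a, an inhibitory receptor that in mice is known from mast cells, neutrophils and macrophages, spread most widely. Its log2 signal was 9.08 with intermittent CS, 11.57 with continuous CS and 10.48 with air. The continuous CS array was the high one and the intermittent CS array the low one, with air between. It was 5.61-fold lower on the intermittent than on the continuous CS array, which placed it lowest of all 22206 clusters. Against air it was 2.14-fold higher with continuous CS and 2.63-fold lower with intermittent CS. Among 1274 clusters whose mean signal lay within 0.5 log2 units of its own, 17 were as high as Lilrb4a or higher for continuous CS over air, and 7 as low or lower for intermittent CS over air.

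The other inhibitory receptors followed the same order of the smoke arrays with smaller distances. Pirb, which binds MHC class I molecules, was at 6.97 with intermittent CS, 7.70 with continuous CS and 7.21 with air. Sirpa, the receptor for Cd47 that restrains phagocytosis, was at 11.44 with intermittent CS, 12.16 with continuous CS and 11.78 with air. Between the smoke arrays both were 1.66-fold lower with intermittent CS, just inside the 1.68-fold range of the olfactory clusters. Against air, Pirb was 1.41-fold higher with continuous CS and 1.18-fold lower with intermittent CS, and Sirpa was 1.30-fold higher and 1.27-fold lower. Among clusters of similar level, 60 of 1696 were as low as Pirb or lower between the smoke arrays and 18 of 894 as low as Sirpa or lower. For continuous CS over air, 138 of the 1696 were as high as Pirb or higher and 116 of the 894 as high as Sirpa or higher. All such counts use the arrays on which the genes were chosen and are no test. Fcgr2b, the inhibitory Fc receptor for IgG, had log2 signals of 6.36 with intermittent CS, 6.51 with continuous CS and 6.20 with air. Its values lay close together, and it alone of the inhibitory receptors had its lowest value on the air array. With intermittent CS it was 1.11-fold below continuous CS and 1.12-fold above air. Of 1844 clusters of similar level, 394 were as low as Fcgr2b or lower between the smoke arrays.

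Of the activating Fc receptors, a difference could be read for Fcgr3 only. Fcgr3, a low-affinity receptor for IgG in immune complexes, was at 8.48 with intermittent CS, 9.53 with continuous CS and 8.76 with air. The intermittent CS and air arrays lay near each other, and continuous CS stood above both. The value with intermittent CS was 2.07-fold below that with continuous CS, and 18 of 1533 clusters of similar level were as low or lower. Against air, Fcgr3 was 1.70-fold higher with continuous CS and 1.22-fold lower with intermittent CS, both within the spread of the olfactory clusters. For continuous CS over air, 63 of the 1533 clusters were as high as Fcgr3 or higher, and for intermittent CS over air 220 were as low or lower. Fcgr1, the high-affinity IgG receptor, had the same value of 5.56 on all 3 arrays, as did 3027 clusters, and a difference in such clusters could not be read. Fcgr4, another activating IgG receptor of mice, was at 3.55 on every array, under the background.

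Fcer1g, the ITAM-bearing chain that activating Fc receptors need to reach the surface and to signal, had nearly the pattern of Fcgr3. Its log2 signal was 9.11 with intermittent CS, 10.13 with continuous CS and 9.35 with air. Between the smoke arrays it was 2.03-fold lower with intermittent CS, with 14 of 1423 clusters of similar level as low or lower. Against air it was 1.72-fold higher with continuous CS and 1.18-fold lower with intermittent CS. Of the 1423 clusters, 54 were as high or higher in the first of these comparisons and 244 as low or lower in the second. Tyrobp, the ITAM adaptor of Trem2 and of other receptors, was at 5.48 with intermittent CS, 6.07 with continuous CS and 5.99 with air. Here continuous CS and air lay together (1.06-fold apart), and intermittent CS was 1.5-fold below continuous CS and 1.42-fold below air. Of 2121 clusters of similar level, 87 were as low as Tyrobp or lower between the smoke arrays. For continuous CS over air, 615 were as high as Tyrobp or higher. Trem2, a lipid-sensing receptor of macrophages, was at 4.73 with intermittent CS and at 4.83 with continuous CS and with air, under the background on each array.

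**Figure D2:**
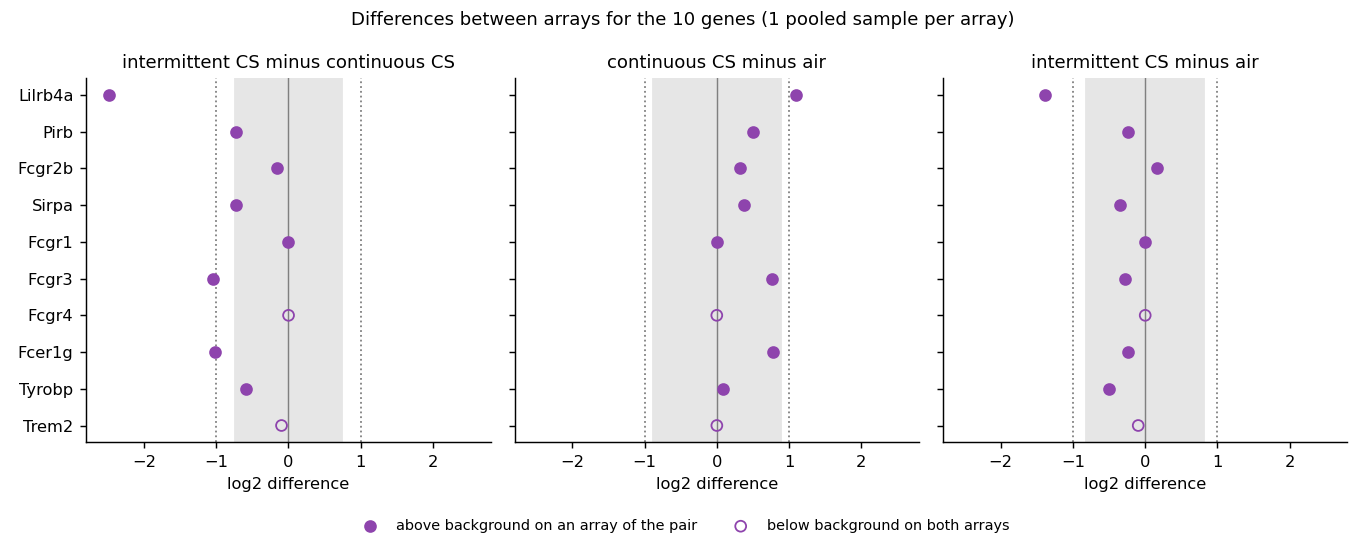
Log2 difference (horizontal axis) of the 10 genes for each pair of arrays, with dotted lines at 2-fold and a grey band that holds 99% of the olfactory clusters; open circles are genes under the background on both arrays. From the left panel to the right, Lilrb4a is at -2.49, 1.10 and -1.39.

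Set against air, continuous CS had 1 of the 10 genes higher by at least 2-fold, Lilrb4a, and none lower. The shares of all clusters were 1.13% higher and 0.473% lower. Intermittent CS also had 1 of the 10 lower than air by at least 2-fold, again Lilrb4a, and none higher, against 0.716% and 0.833% of all clusters. These comparisons share arrays, so a high value on the continuous CS array enters 2 of them with opposite sign. The genes above background that were not equal on all arrays numbered 7. All 7 had a lower value on the intermittent than on the continuous CS array, with a median log2 difference of -0.73, and all 7 stood higher on the continuous CS array than on the air array, with a median of 0.50. Between intermittent CS and air, 6 of the 7 were lower and Fcgr2b was higher, with a median of -0.28. These 7 were kept by their values, and their counts describe these arrays only. Of all 22206 clusters, 27.5% were equal between the smoke arrays, 24.3% between continuous CS and air and 24.4% between intermittent CS and air. Fcgr1, without a difference, ranked 8082 from the lowest and 8024 from the highest between the smoke arrays. Its ranks were 8456 and 8356 for continuous CS over air, and 8585 and 8200 for intermittent CS over air.

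**Figure D3:**
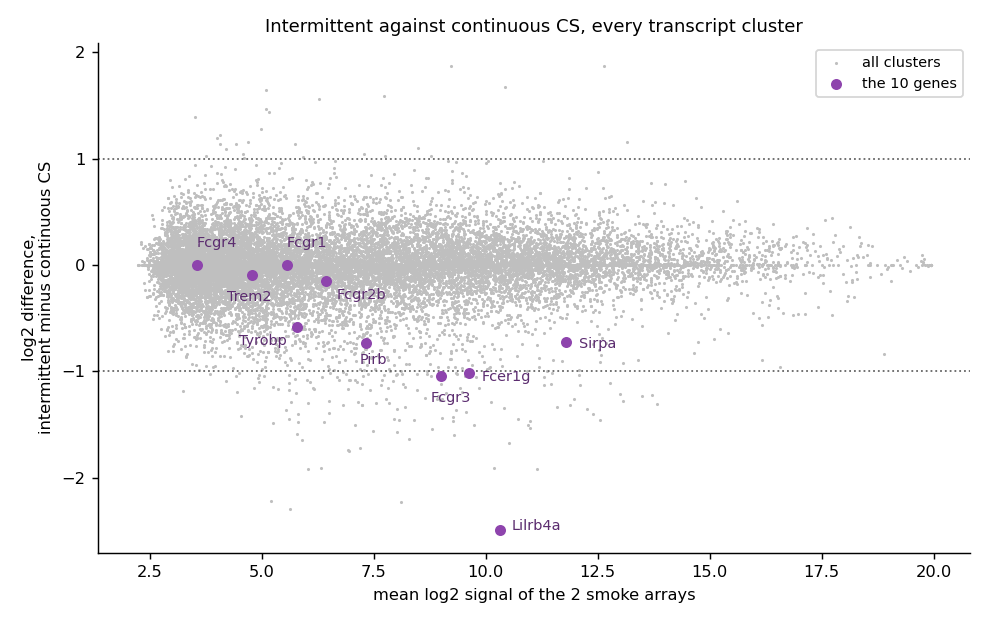
Log2 difference between intermittent and continuous CS (vertical axis) against the mean log2 signal of both smoke arrays (horizontal axis), with 1 grey point per transcript cluster, the 10 genes in purple and dotted lines at 2-fold. Lilrb4a lies lowest of 22206 clusters at -2.49, Fcgr3 and Fcer1g lie just past the 2-fold line, and Sirpa, Pirb and Tyrobp lie above it.

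Related receptors outside the 10 genes were compared as fixed lists. Of 47 other immunoglobulin-like myeloid receptors 36 were measured, and 22 of the 36 lay above the background on any array. With intermittent CS 29 had a lower value than on the other smoke array, 2 a higher one and 5 the same. Over all clusters, lower and higher values were near equal in number, as the ranks of Fcgr1 given above show, and 27.5% were equal. The 36 had a median log2 difference of -0.23, against 0.00 over all clusters. The 3 that were lower by at least 2-fold were Lilr4b, the near copy of Lilrb4a, Nfam1, an ITAM-bearing receptor, and Cd33, a sialic acid-binding receptor. Lilr4b was at 5.36 with intermittent CS, 7.27 with continuous CS and 6.10 with air, the order of Lilrb4a. Nfam1 was at 6.07 with intermittent CS, 7.82 with continuous CS and 7.38 with air. Cd33 was at 5.37 with intermittent CS, 6.67 with continuous CS and 5.77 with air. Between the smoke arrays Lilr4b was 3.75-fold lower with intermittent CS, Nfam1 3.37-fold and Cd33 2.46-fold. Lilr4b was the only one of the 36 to pass 2-fold upward with continuous CS over air, at 2.24-fold. With intermittent CS, Nfam1 was 2.49-fold lower than with air. The list also holds Mpeg1, which codes for a pore-forming protein and not for such a receptor and was 2.81-fold below air with intermittent CS. Lilrb4a and Lilr4b are so alike that probes may be shared between them. The same holds for Pirb and the Pira genes and for the outer parts of Fcgr2b and Fcgr3, and how far the probes tell these copies apart was not tested.

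The 13 other Fc receptors had a median log2 difference of 0.00 between the smoke arrays, and none was 2-fold apart there. Over air, continuous CS was 2-fold higher for 2 of them. Fcer2a, the low-affinity IgE receptor, was at 11.25 with intermittent CS, 11.78 with continuous CS and 10.27 with air. Fcgrt, which carries IgG across epithelia, was at 9.21 with intermittent CS, 9.55 with continuous CS and 8.36 with air. Both stood above air on each smoke array, unlike the 6 genes named above whose air value lay between the smoke arrays. Over air, continuous CS was 2.85-fold higher for Fcer2a and 2.29-fold for Fcgrt.

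Genes for the signaling proteins and ligands of these receptors were described in the same way. Of 24 measured genes of the activating pathway none was 2-fold apart between the smoke arrays, with a median of -0.20. Pik3ap1, an adaptor of phosphoinositide 3-kinase, was at 10.18 with intermittent CS, 10.70 with continuous CS and 12.47 with air, 4.91-fold lower with intermittent CS and 3.43-fold lower with continuous CS than with air. Syk, the kinase that ITAMs recruit, had log2 signals of 7.19, 7.50 and 7.19 on the arrays in the same order. Of 12 genes of the inhibitory pathway 1 passed 2-fold, the lipid phosphatase Inpp5d, at 7.17 with intermittent CS, against 8.02 with continuous CS and 8.25 with air, which put intermittent CS 2.12-fold below air. The ITIM-bound phosphatase Ptpn6 was at 7.72 with intermittent CS, 8.29 with continuous CS and 7.88 with air, a distance of 1.48-fold between the smoke arrays. Of 14 measured ligands, B2m, the light chain of MHC class I that Pirb binds, lay 2.04-fold below air with intermittent CS. Its log2 signal was 18.48 with intermittent CS, 19.31 with continuous CS and 19.50 with air. Cd47, the ligand of Sirpa, stayed within 0.01 log2 units over the 3 arrays. Sftpd, a surfactant protein that also binds Sirpa, was at 18.71 with intermittent CS and 18.54 on both other arrays.

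Markers of other cells were set beside these values. In a bulk sort, fewer cells of a type and less RNA per cell cannot be told apart. All 17 measured pan-leukocyte markers, 15 of them above the background, had a lower value on the intermittent than on the continuous CS array. Their median log2 difference was -0.55, against 0.00 over all clusters, and 2 of them, Cd53 and Itgb2, were lower by at least 2-fold. Their summed linear signal was 47337 with intermittent CS, 57146 with continuous CS and 48788 with air and is set mainly by Lcp1. Lcp1 was at 15.10 with intermittent CS, 15.14 with continuous CS and 14.79 with air. Of the 17 markers, 14 were lower with intermittent CS than with air, and only Lcp1 was higher. For continuous CS over air, the 17 markers had a median of 0.01 and all 10 genes one of 0.35. For intermittent CS over air, these medians were -0.58 and -0.24. The 7 readable genes, those above the background and not equal on all arrays, had 0.50 and -0.28. The markers were not filtered in this way, so the medians of the 7 are not set against theirs. With the pan-leukocyte median subtracted, Lilrb4a was at -1.94 on the log2 scale for intermittent minus continuous CS. Fcgr3 was then at -0.50, Fcer1g at -0.47, Pirb at -0.18, Sirpa at -0.17, Tyrobp at -0.03 and Fcgr2b at 0.40. Against air and on the same scale, intermittent CS gave Lilrb4a -0.81, and the other 6 lay between 0.08 for Tyrobp and 0.74 for Fcgr2b. The part of leukocyte number in the receptor values was not tested.

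Among 15 measured neutrophil markers, 5 lay at least 2-fold lower on the intermittent than on the continuous CS array, and the median was -0.57. In all, 11 were lower with intermittent CS, 2 were higher and 2 were equal. Csf3r, the receptor of granulocyte colony-stimulating factor, was 4.70-fold lower and S100a8 3.35-fold lower, and Cxcr2 and Clec4d, which lay under the background with intermittent CS, were at least 3.61-fold and 2.72-fold lower. With continuous CS, Csf3r and Cxcr2 were 2.57-fold and 2.5-fold above air. With intermittent CS, S100a8 and Retnlg were 3.02-fold and 2.66-fold below air. The mean log2 level of the list was 7.13 with intermittent CS, 7.87 with continuous CS and 7.64 with air, and 8, 11 and 10 of its genes lay above the background. Its summed linear signal was 1094196 with intermittent CS, 1083844 with continuous CS and 1137428 with air. This sum is set mainly by Lcn2, which stood at the ceiling on all arrays, and its differences mainly by Hdc. The authors count Lcn2 among the genes specific to AT2 cells, so the sum is no measure of neutrophils. Hdc was at 16.51 with intermittent CS, 16.32 with continuous CS and 17.05 with air. Of 15 alveolar macrophage markers none was 2-fold apart in any comparison, and their median between the smoke arrays was -0.07. Above the background were 13 of them with intermittent CS, 14 with continuous CS and 13 with air, with Chil3 at 11.97, 12.36 and 12.05 and Mrc1 at 8.18, 8.25 and 8.25 on the arrays in the same order, while the surface receptor Marco lay under it throughout. Of 16 markers of monocytes and interstitial macrophages 2, Ace and Adgre4, passed 2-fold downward between the smoke arrays, with a median of -0.18. Above the background were 10 of the 16 with intermittent CS, 11 with continuous CS and 10 with air, Csf1r and Ly6c2 among them on all arrays, whereas C1qa, C1qc and Adgre1 lay under it on every array. Over air, continuous CS was 3.13-fold higher for Ace and at least 1.71-fold higher for C1qb. The log2 differences of Ace were -1.33 between the smoke arrays and 1.65 for continuous CS over air. Its list had medians of -0.18 and 0.11 there, and the endothelial markers, described below, -1.07 and 0.99. Which cells gave the signal of Ace was not tested. Of 10 mast cell and basophil markers, only 2, Kit among them, lay above the background on any array, and Fcer1a and Ms4a2 did not. On the intermittent CS array Kit was 3.02-fold below continuous CS, and with continuous CS it was 2.48-fold above air. Which cells gave the signal of Kit was not tested. The part of any of these cells in the receptor values was not tested. The 11 dendritic cell markers had medians of -0.23 between the smoke arrays and -0.29 for intermittent CS over air. Among them Ccl22 was 2.84-fold and Xcr1 at least 1.81-fold lower between the smoke arrays, Ccl22 was 2.33-fold higher with continuous CS over air, and Xcr1 and Itgae were at least 3.22-fold and 2.47-fold lower with intermittent CS over air. The 9 T cell markers had medians of -0.51 between the smoke arrays and -0.84 for intermittent CS over air, where Cd3g was 2.66-fold and Il7r 2.43-fold lower. Il7r was also 2.44-fold lower between the smoke arrays, and Cd8a at least 1.43-fold lower with continuous CS over air. The 7 B cell markers had a median of 0.18 between the smoke arrays, although Jchain was 2.75-fold lower there and 2.79-fold higher with continuous CS over air. The 10 NK cell markers had a median of 0.07 between the smoke arrays, with 1 of them above the background. Of 12 endothelial markers 6 passed 2-fold downward for intermittent against continuous CS (median -1.07) and 6 passed it upward for continuous CS over air (median 0.99). The widest were Erg, Ednrb, Calcrl and Ramp2 between the smoke arrays, 2.97-fold to 2.6-fold lower, and Ramp2, Ednrb, Erg and Cdh5 over air, 4.99-fold to 2.5-fold higher. Of the 20 AT2 markers 5 were at the ceiling on all arrays, where a difference could not be read, and 1, the complement gene Hc, was 2-fold apart in a comparison, at 2.19-fold lower with continuous CS over air.

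**Figure D4:**
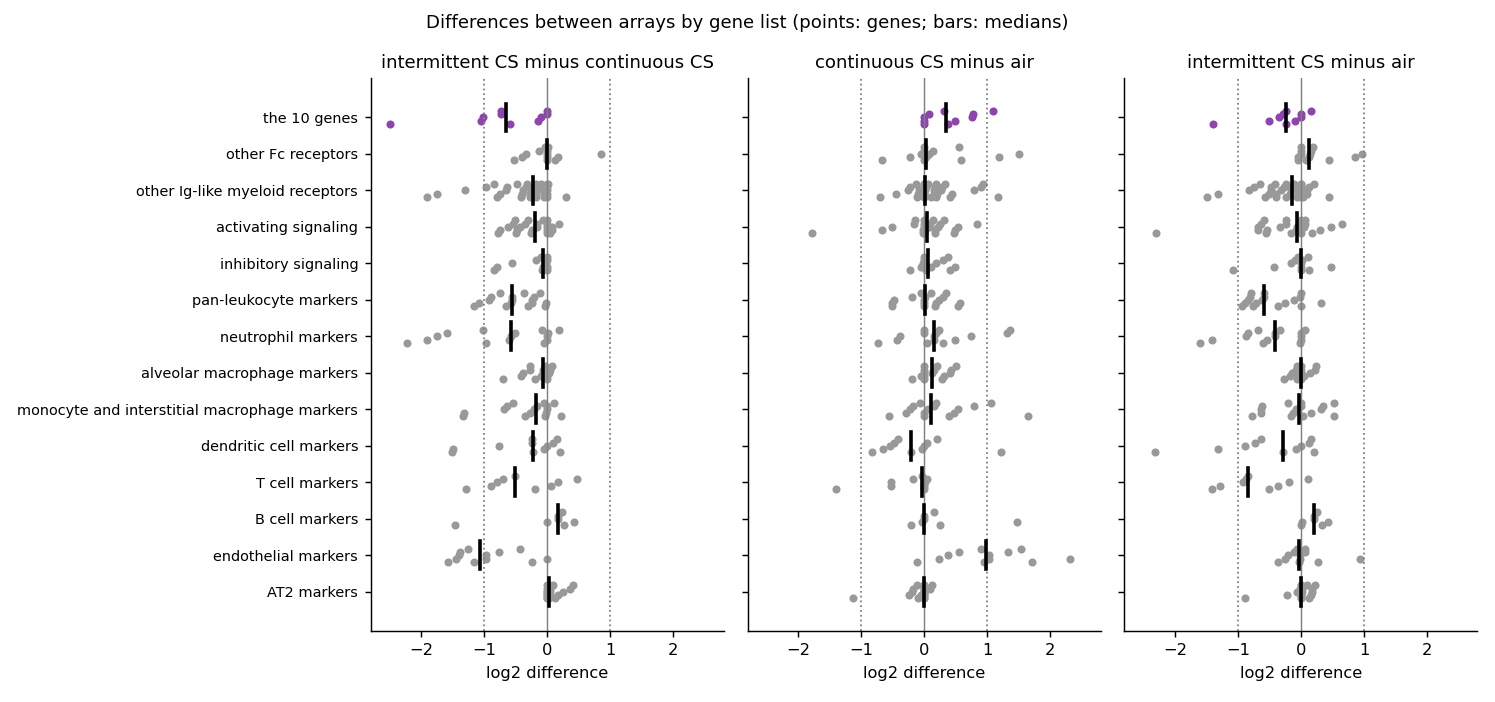
Log2 differences (horizontal axis) of the 10 genes in purple and of the other gene lists in grey for each pair of arrays, with 1 point per gene, black bars at the medians and dotted lines at 2-fold. Between the smoke arrays the medians are -0.66 for the 10 genes, -0.55 for pan-leukocyte, -0.57 for neutrophil, -0.07 for alveolar macrophage and -1.07 for endothelial markers.

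The genes nearest in pattern were found by distance between the pairs of log2 differences, intermittent minus continuous CS and continuous CS minus air, over 11259 named clusters above the background with continuous CS. With 3 arrays behind it, this distance is a description. Of the 5 nearest to Lilrb4a, Csf3r at a distance of 0.37, Lilr4b at 0.59 and the cytokine gene Il1b at 0.62 were above the background on all arrays. Tlr13, a Toll-like receptor for bacterial RNA, and the neutrophil chemokine receptor Cxcr2 were the others. Tlr13 was at 4.09 with intermittent CS, 6.31 with continuous CS and 5.14 with air, above the background with continuous CS only, and Cxcr2 was under it with intermittent CS at 5.08, so neither has a distance that can be ranked. Nearest to the median of the 10 genes were Tgfbi at 0.02, Rasgrp4 and Nrn1 at 0.03, Cers6 at 0.04 and Gja5 at 0.05.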

How the data were processed

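AT2 cells of intermittent CS, continuous CS and air-exposed mice were measured on 1 Clariom S array per exposure. The authors used the Transcriptome Analysis Console on the scans and deposited a table of log2 values, 1 per transcript cluster and array. Not given in the sources used here are the version, the summarization, the background correction, the normalization and the genome build of the array. Each column of values was matched to its exposure through the labels. Gene names came from the platform annotation, checked against RefSeq genes of GRCm38.p6.

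The values were used as deposited. A gene with several clusters was to be read from its brightest cluster, by the mean of the 3 arrays, though each of the 10 genes had 1. Log2 differences were taken between the CS arrays (intermittent minus continuous) and of each CS array minus air, and clusters 2-fold or more apart were counted. With a single array for each exposure no test could be made, and the number of arrays limits the precision. The members and lists were chosen with earlier results of these data known, and so was the PU.1 core motif after a look at several motifs in these promoters.

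Genes named are all 10 members, the members of each other list at least 2-fold apart and above the background on an array of the pair (at most the 4 with the largest distance), the 5 clusters nearest in pattern to Lilrb4a and to the members' median, and Sftpc, Sftpb, Epcam and Ptprc. Pathway genes, ligands, Chil3, Mrc1, Csf1r, Ly6c2, Marco, C1qa, C1qc, Adgre1, Fcer1a, Ms4a2 and Lcn2 named with smaller distances were chosen after their values were seen. So were Lcp1 and Hdc. Where a gene lay under the background on 1 of the arrays compared, its fold is a lower bound taken against the background there.

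Alternatives were median centring, quantile normalization and cyclic loess, values raised to the background, filters on level, 32 added to each linear value, calls at 1.5-fold and at 3-fold, the mean of the members and the mean over clusters. Subtraction of the pan-leukocyte median was an alternative chosen after seeing the data. Only the 2-fold call was tried on simulated differences with planted changes, drawn from a normal distribution without the equal values found in the data. R 4.3.3 with limma 3.58.1 gave the scalings, and Python 3.11.15 (numpy 2.4.6, pandas 2.3.3, matplotlib 3.10.9) all else.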

Additional observations from a re-analysis of the deposited data

How the results depend on the processing

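No paired analysis was possible because each exposure has 1 array. Quantile normalization and cyclic loess left Lilrb4a, Fcgr3 and Fcer1g past 2-fold lower between the smoke arrays. Centring each array on its median left 2, Lilrb4a and Fcgr3, with Fcer1g at -0.98. The log2 difference of Lilrb4a ran from -2.50 to -2.42 over the scalings and the added constant. With 32 added to each linear value the count of 3 was 1 (Lilrb4a), with Fcgr3 and Fcer1g both at -0.98, just short of 2-fold. At 1.5-fold it was 6, all of the 7 readable genes but Fcgr2b, and at 3-fold it was 1. With continuous CS over air the count of 1 higher was 3 at 1.5-fold and 0 at 3-fold. With intermittent CS over air the count of 1 lower was 0 at 3-fold. The shares of all clusters past 1.5-fold and 3-fold were not counted, so nothing is read from these counts.

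Relative to the pan-leukocyte median, 1 gene was at least 2-fold lower between the smoke arrays and 0 for intermittent CS over air, and the medians of the 10 genes were -0.10 and 0.34, against -0.66 and -0.24 as deposited. Among clusters above the background on an array of the pair, 1.06% were 2-fold lower between the smoke arrays, 1.89% higher and 0.779% lower with continuous CS over air, and 1.37% higher and 1.18% lower with intermittent CS over air. No alternative turned the direction of a distance of 2-fold or more. Signal over background limits Fcgr4 and Trem2, and equal values limit Fcgr1.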
